A study of Mus musculus with 22 samples.

Results

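The genes described here encode the proteins of the cytosolic ribosome. They were chosen by symbol, as every named gene with a RefSeq probe whose symbol begins with Rpl or Rps followed by a digit, plus Rpsa, Rplp0, Rplp1 and Rplp2, and without Rps6 kinases, pseudogenes and Gm models. The rule found 88 genes among the 22384 genes tested, measured by 176 probes, and all 88 passed the filter on dim probes. By their known products 31 belong to the small subunit, 42 to the large subunit and 3 to the stalk of the large subunit, so that 76 are ordinary subunit proteins. A further 10 are paralogs or retrocopies (Rpl3l, Rpl7l1, Rpl10l, Rpl22l1, Rpl36al, Rpl39l, Rps4l, Rps27l, Rpl32l and Rpl37rt), and 2 meet the rule by symbol only, since Rps19bp1 and Rps23rg1 encode no subunit of the ribosome.

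Expression was measured on 22 one-colour Agilent arrays of bone marrow derived macrophages (BMDM) from C57BL/6 mice labelled as male and 10 to 14 weeks old, with C57BL/6J given in the study's methods as the background of the deficient lines. Bone marrow cells were differentiated with M-CSF and then kept for 360 min with 100 ng/ml LPS, a bacterial wall component that activates Toll-like receptor 4, or with medium alone. Wild-type (wt) BMDM gave 3 LPS and 4 medium arrays, BMDM from mice lacking the kinase MK2 (MK2-/- BMDM) gave 4 and 4, and BMDM from mice lacking MK2 and its relative MK3 (MK2/3-/- BMDM) gave 4 and 3. MK2 and MK3 are activated by p38 kinases and act on the stability and translation of inflammatory mRNAs, and the study asked which LPS-responsive transcripts depend on them. The deficient mice lack the kinases from birth, so these BMDM also differentiated without them. The study's methods describe the repeats as independent experiments, and the labels do not say which arrays share an animal or a culture.

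Levels are log2 signals after quantile normalisation over the 22 arrays, and differences are log2 differences of group means from a limma fit over all 22384 genes, given with their standard error (SE) and called below 0.05 after Benjamini-Hochberg adjustment. Each genotype had its own slide, so genotype and slide cannot be told apart, whereas LPS and medium of a genotype shared a slide. The median signal per array before normalisation lay between 32.7 and 108, and 61.7% to 83% of probes were well above background. Of 10 macrophage markers 9 were tested, and all 9 were well above background on every array. Mapkapk2, which encodes MK2, was lower in MK2-/- than in wt BMDM (log2 8.88 ± 0.13 against 11.9 ± 0.77 in medium, SD, n = 4 and 4), and Mapkapk3, which encodes MK3, was lower in MK2/3-/- than in MK2-/- BMDM under LPS (8 ± 0.41 against 12.35 ± 0.3, SD, n = 4 and 4). In medium the Mapkapk3 gap was smaller (11.16 ± 0.23 against 12.9 ± 0.35, SD, n = 3 and 4). On 2 arrays, the LPS and the medium array numbered 3 of MK2-/- BMDM, the Y-linked genes Ddx3y and Eif2s3y had mean log2 signals of 2 and 2.66 (10.59 to 11.77 on the others) and Xist was high, against the label male. The same LPS array had 2927 spots left out, against 115 to 261 on the others. For MK2-/- BMDM the LPS median of the members and the counts called under LPS and against wt are also given without both arrays. Values of single members are not.

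A ribosome is built from ribosomal RNA and one copy of most ribosomal proteins, which are made in the cytoplasm, imported into the nucleolus and assembled there onto the nascent rRNA. The small subunit reads the mRNA, and the large subunit forms peptide bonds and carries the stalk that recruits elongation factors. Mammalian ribosomal protein mRNAs usually start with a C followed by a run of pyrimidines, the 5′ terminal oligopyrimidine (TOP) tract, through which mTOR and the RNA-binding protein LARP1 control their translation and stability together.

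The TOP tract is a known trait of the family that the choice by symbol did not use. At the annotated start, 14 of 79 member promoters carried it. The start sites of some of the genes that the results turn on are shown here, with and without the tract. Each is the 15 bases before and the 15 bases from the annotated start on, read 5′ to 3′ on the gene's strand (RefSeq promoter sequences, build GRCm38.p6), with capitals for a tract that begins with C at the annotated start.
Rps6 (chr4:86857353-86857382, minus strand): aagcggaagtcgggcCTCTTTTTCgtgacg
Rpl14 (chr9:120571502-120571531, plus strand): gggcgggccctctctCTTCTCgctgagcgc
Rps18 (chr17:33955651-33955680, minus strand): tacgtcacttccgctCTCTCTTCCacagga
Rplp2 (chr7:141447636-141447665, plus strand): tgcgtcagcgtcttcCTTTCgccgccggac
Rps27 (chr3:90213634-90213663, minus strand): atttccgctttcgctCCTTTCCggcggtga
Rpl38 (chr11:114668565-114668594, plus strand): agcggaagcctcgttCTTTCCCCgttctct
Members whose annotated start carried no such tract included Rpsa, the subunit protein with the lowest LPS difference in MK2/3-/- BMDM, Rpl24, the subunit protein called in no genotype, and Rps23rg1, the member with the highest rise.
Rpsa (chr9:120127751-120127780, plus strand): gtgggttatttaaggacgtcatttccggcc
Rpl24 (chr16:55966260-55966289, plus strand): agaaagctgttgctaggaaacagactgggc
Rps23rg1 (chr8:3567983-3568012, plus strand): gctttgcagagagtctttctctcaccccag

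Promoters of 300 bases, 250 before and 50 from the start on, were listed for 67 of the 88 members, 79 promoters in all. A C at the annotated start followed by at least 4 pyrimidines stood in 14 of the 79 promoters (17.7%), against 2.51% of all 32851 promoters of the table. A run of at least 8 pyrimidines within 15 bases of the start stood in 30 (38%), against 12%. The first count depends on the exact base at which the annotation starts. On either strand, the ETS motif CCGGAAG stood in 32.9% of the members' promoters against 8.86% of all, the YY1 motif AAGATGGCG in 7.59% against 1.4%, the GC box GGGCGG in 58.2% against 35.7%, the E-box CACGTG in 10.1% against 7.15% and the TATA box TATAAA in 10.1% against 13.6%. These matches describe the letters of the windows, and binding was not measured.

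Ribosomal protein mRNAs were among the brightest on these arrays. The mean log2 signal of the 76 subunit proteins lay between 15.3 and 18.24, with a median of 16.93, whereas the median over all genes was 7.65. Of the 76, 47 were above the 99th percentile of genes, and members made up 27 of the 100 and 13 of the 50 brightest genes. Rplp0, the stalk protein that anchors the others to the large subunit, had a mean of 18.23. The highest member signal on any array was 18.72, and no spot was marked as saturated. Signals of different probes are not comparable as mRNA amounts, so this order is one of signals. The paralogs with tissue-restricted expression were dim, with a mean log2 signal of 5.03 for Rpl3l (the muscle form), 5.55 for Rpl10l (the testis form) and 7.13 for Rpl39l.

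The first comparison asked how the ribosomal protein mRNAs responded to LPS in each genotype. In all 3 genotypes nearly every subunit protein mRNA moved down within the array. Ranked by signal within each array, where rank 1 is the brightest gene, the median rank of the 76 was 131 to 156 on the wt medium arrays and 259 to 291 on the wt LPS arrays. Without MK2 the median rank was 128 to 146 in medium and 262 to 302 under LPS, and in MK2/3-/- BMDM it was 145 to 152 and 246 to 372. The ranges did not overlap in any genotype. The rank of 72, 72 and 74 of the 76 was lower under LPS without overlap between the groups in wt, MK2-/- and MK2/3-/- BMDM, and that of 0 was higher. The share over all genes was 24.8%, 22% and 26.2%, and over the 296 other genes with a mean log2 signal of at least 16 it was 44.6%, 52.7% and 55.1%. These 296 genes were chosen by their mean over all arrays, LPS arrays included, so genes raised by LPS are among them. On the quantile normalised scale 71, 76 and 72 of the 296 were called higher under LPS and 118, 138 and 143 lower. Of the 200 brightest genes of an array, 43 to 48 were subunit proteins in medium and 16 to 31 under LPS. A rank does not depend on how an array is scaled as long as the order of its genes is kept. In bulk RNA, fewer cells of a type and less RNA per cell cannot be told apart.

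On the quantile normalised scale, 66 of the 88 members fell in wt BMDM and 1 rose, against 23.5% of all genes called lower and 18.6% called higher. In MK2-/- BMDM 75 fell and 2 rose (27.1% and 17.5% of all genes), and in MK2/3-/- BMDM 78 fell and 1 rose (27.9% and 20.2%). The median log2 difference of the members was -0.57 in wt, -0.56 in MK2-/- and -0.65 in MK2/3-/- BMDM, whereas with each array scaled to its 75th percentile instead it was 0.28, 0.19 and 0.30, with 0 members called lower and 14, 4 and 13 called higher. This other scaling moved the median of all genes from -0.04, -0.01 and 0.01 to 0.30, 0.28 and 0.29, and that of the 296 other bright genes from -0.33, -0.34 and -0.40 to 0.52, 0.39 and 0.54. The distance of the members' median from that of the other bright genes was -0.24, -0.22 and -0.24 with the first scaling and -0.24, -0.21 and -0.24 with the second. The distance from the median of all genes was -0.53, -0.55 and -0.66 with the first and -0.02, -0.10 and 0.01 with the second. The ribosomal protein mRNAs were thus lower relative to other bright mRNAs with both scalings, while their position relative to all genes depended on the scaling. Scaling every array to the median of the other bright genes, an alternative chosen after seeing the data, gave medians of -0.50, -0.57 and -0.60, and the authors' own normalised table gave -0.44, -0.42 and -0.50. Scaling to the other bright genes moves all genes of an array alike, so its medians are no distance from other genes. Before any normalisation the members' medians were -0.49, -0.29 and -0.47. Those of all genes were then -0.47, -0.20 and -0.48, and those of the other bright genes -0.24, -0.08 and -0.23.

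**Figure D1:**
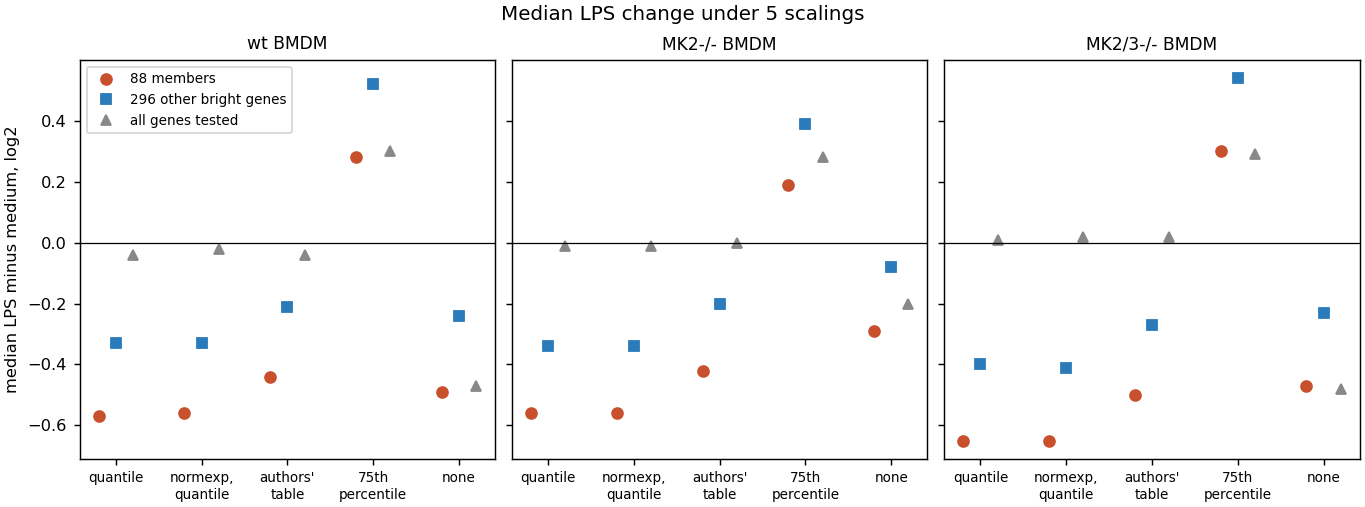
Median log2 difference, LPS minus medium, of the cytosolic ribosomal protein genes (88), of other genes with a mean log2 signal of at least 16 (296) and of all genes tested, in each genotype and under each scaling of the arrays. The members lie below the other bright genes under each scaling drawn, while their own sign is negative after quantile normalisation (-0.57, -0.56 and -0.65) and positive after 75th percentile scaling (0.28, 0.19 and 0.30).

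The members' part of the summed signal of an array, before any normalisation, gave the same picture without a scaling factor. In wt BMDM the 88 members held 10.2% to 11.5% of the summed signal in medium and 7.37% to 8.37% under LPS. MK2-/- arrays held 11% to 11.8% and 7.14% to 8.19%, and in MK2/3-/- BMDM 10.3% to 10.8% and 6.31% to 8.55%. The LPS and medium arrays of a genotype did not overlap. A share of the summed signal also falls when other bright genes rise.

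**Figure D2:**
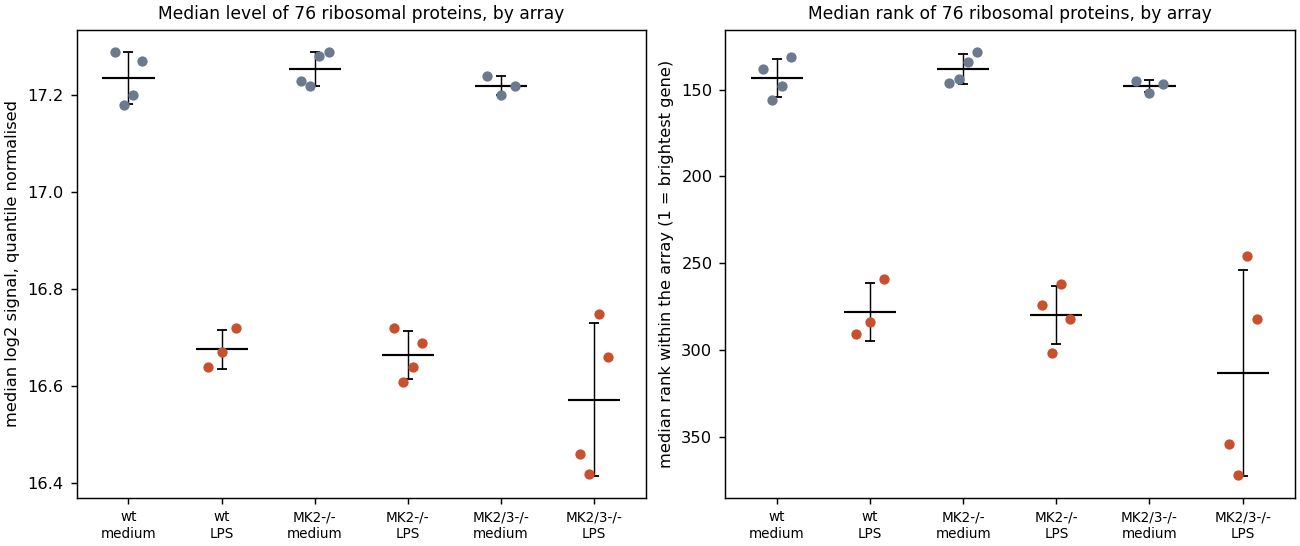
Median log2 signal (quantile normalised) of the 76 subunit proteins (left) and their median rank within the array (right, axis inverted, 1 = brightest) on each of the 22 arrays, by genotype and treatment, with the mean and SD of each group. LPS arrays lie between 16.42 and 16.75 and medium arrays between 17.18 and 17.29 on the left, where 75th percentile scaling turns the sign of the median difference, and the ranks on the right do not depend on that scaling.

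On single arrays the median log2 signal of the 76 subunit proteins was 17.23 ± 0.05 in wt medium (SD, n = 4) and 16.68 ± 0.04 in wt LPS (n = 3). It was 17.25 ± 0.04 against 16.66 ± 0.05 in MK2-/- BMDM (n = 4 and 4), and 17.22 ± 0.02 against 16.57 ± 0.16 in MK2/3-/- BMDM (n = 3 and 4). The MK2/3-/- LPS group had the widest spread, because its replicates 1 and 2 lay at 16.46 and 16.42 and its replicates 3 and 4 at 16.75 and 16.66. Across members, the LPS difference in one genotype was related to that in another with a Pearson r of 0.465 (wt and MK2-/-), 0.638 (wt and MK2/3-/-) and 0.608 (both deficient genotypes) over the 76 proteins. These correlations are descriptions, since the genes share the same arrays. The r between the mean signal and the LPS difference was 0.186, 0.267 and 0.246.

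**Figure D3:**
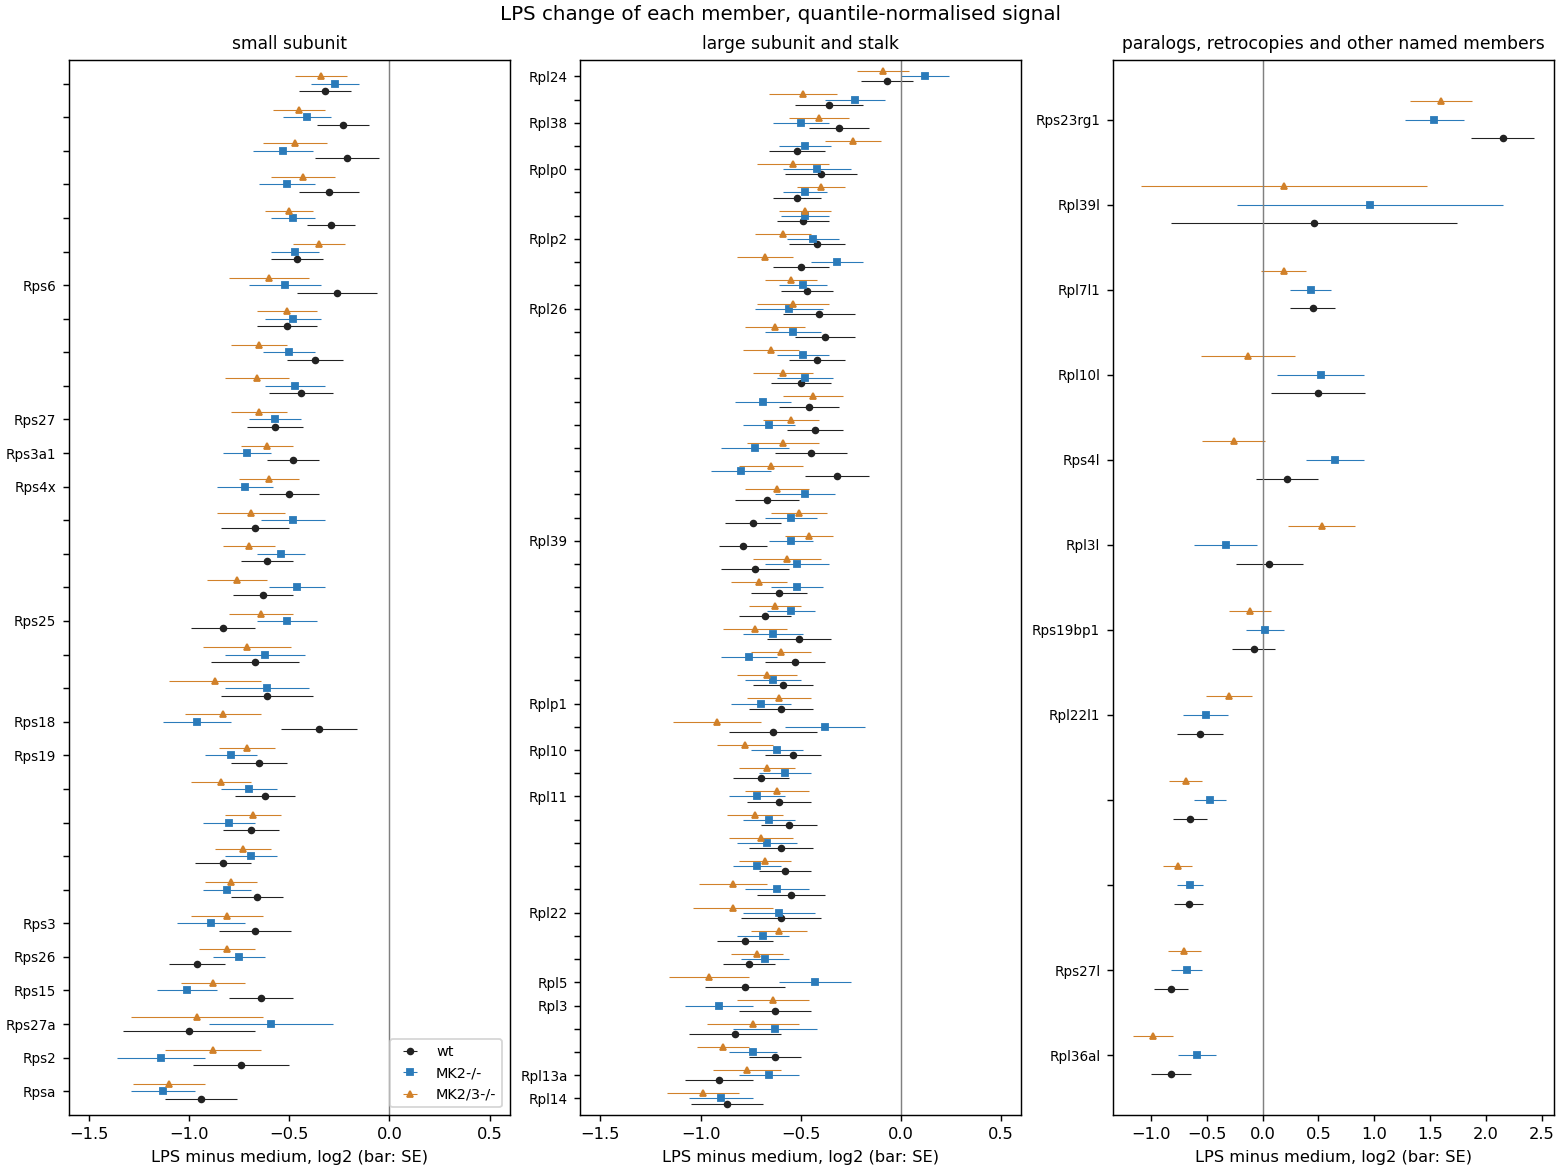
Log2 difference, LPS minus medium, of each member in wt, MK2-/- and MK2/3-/- BMDM (quantile normalised, error bars SE), grouped by role in the ribosome, with names for most members that the text describes. Of the 76 subunit proteins 61, 70 and 74 were called lower and 0 higher, and after 75th percentile scaling 0 were called lower and 13, 3 and 11 higher.

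Of the 76 subunit proteins 57 were called lower in all 3 genotypes and 75 in at least 1, while after 75th percentile scaling 0 were called lower. All values that follow are on the quantile normalised scale, and the members named as having fallen were no longer called lower after 75th percentile scaling.

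Small subunit proteins were called lower in 24, 29 and 31 of 31 cases in wt, MK2-/- and MK2/3-/- BMDM, with medians of -0.61, -0.59 and -0.69 (0.27, 0.21 and 0.29 after 75th percentile scaling). Rpsa, which joins the small subunit late in assembly and also serves as a laminin receptor, had log2 signals of 18.38, 18.11, 18.26 and 18.27 in wt medium and 17.37, 17.23 and 17.34 in wt LPS. It had, in MK2-/- BMDM, 18.11, 17.99, 18.07 and 17.98 in medium and 16.94, 16.67, 17.07 and 16.94 under LPS, and in MK2/3-/- BMDM 17.99, 17.97 and 18.12 in medium and 16.59, 16.59, 17.25 and 17.3 under LPS. Every LPS array was lower than every medium array of its genotype. Rpsa fell by 0.94 ± 0.18 (SE, adjusted p = 0.000248) in wt, by 1.13 ± 0.16 (adjusted p = 1e-05) in MK2-/- and by 1.1 ± 0.18 (adjusted p = 3.51e-05) in MK2/3-/- BMDM in the limma fit.

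Rps2, a protein at the mRNA entry channel, had log2 signals of 17.26, 16.54, 17.2 and 16.84 in wt medium and 16.53, 16.11 and 16.02 in wt LPS. The values in MK2-/- BMDM were 16.94, 17.08, 17.26 and 16.98 in medium and 15.9, 15.65, 16.18 and 15.99 under LPS, and in MK2/3-/- BMDM 16.69, 16.63 and 16.95 against 15.33, 15.62, 16.48 and 16.09. The groups did not overlap in any genotype, although in wt they came within 0.01 of each other. Rps2 fell by 0.74, 1.14 and 0.88 in wt, MK2-/- and MK2/3-/- BMDM (limma adjusted p = 0.0189, 0.000319 and 0.0053), the largest fall of any member in MK2-/- BMDM. The wt call was lost without wt LPS replicate 2 or 3 or wt medium replicate 1 or 3, with values from -0.69 to -0.64. Rps15, a neighbour of the decoding site, fell by 0.64, 1.01 and 0.88.

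Rps26, which contacts the mRNA upstream of the start codon, had log2 signals of 17.32, 17.5, 17.09 and 17.22 in wt medium and 16.21, 16.28 and 16.48 in wt LPS. They were 17.64, 17.48, 17.49 and 17.43 in MK2-/- medium and 16.94, 16.76, 16.66 and 16.7 in MK2-/- LPS, and in MK2/3-/- BMDM 17.24, 17.29 and 17.41 against 16.48, 16.42, 16.45 and 16.64. The groups lay clear of each other in each genotype. Rps26 fell by 0.96 ± 0.14 in wt, 0.75 ± 0.13 in MK2-/- and 0.81 ± 0.14 in MK2/3-/- BMDM (limma adjusted p = 1.35e-05, 6.28e-05 and 5.58e-05).

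Rps27a encodes a fusion of ubiquitin with a small subunit protein, and had the lowest difference in wt BMDM, which rested on 1 array. Its wt log2 signals were 18.09, 17.99, 18.18 and 17.9 in medium and 15.96, 17.57 and 17.61 under LPS. It fell by 1 ± 0.33 (limma adjusted p = 0.0205), and without wt LPS replicate 1 the difference was -0.45 and was not called (adjusted p = 0.189). In MK2-/- BMDM the difference was -0.59 (adjusted p = 0.132), and in MK2/3-/- BMDM it fell by 0.96 (adjusted p = 0.0214), with LPS values of 16.44, 17.22, 17.73 and 17.77 against 18.32, 18.2 and 18.22.

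**Figure D4:**
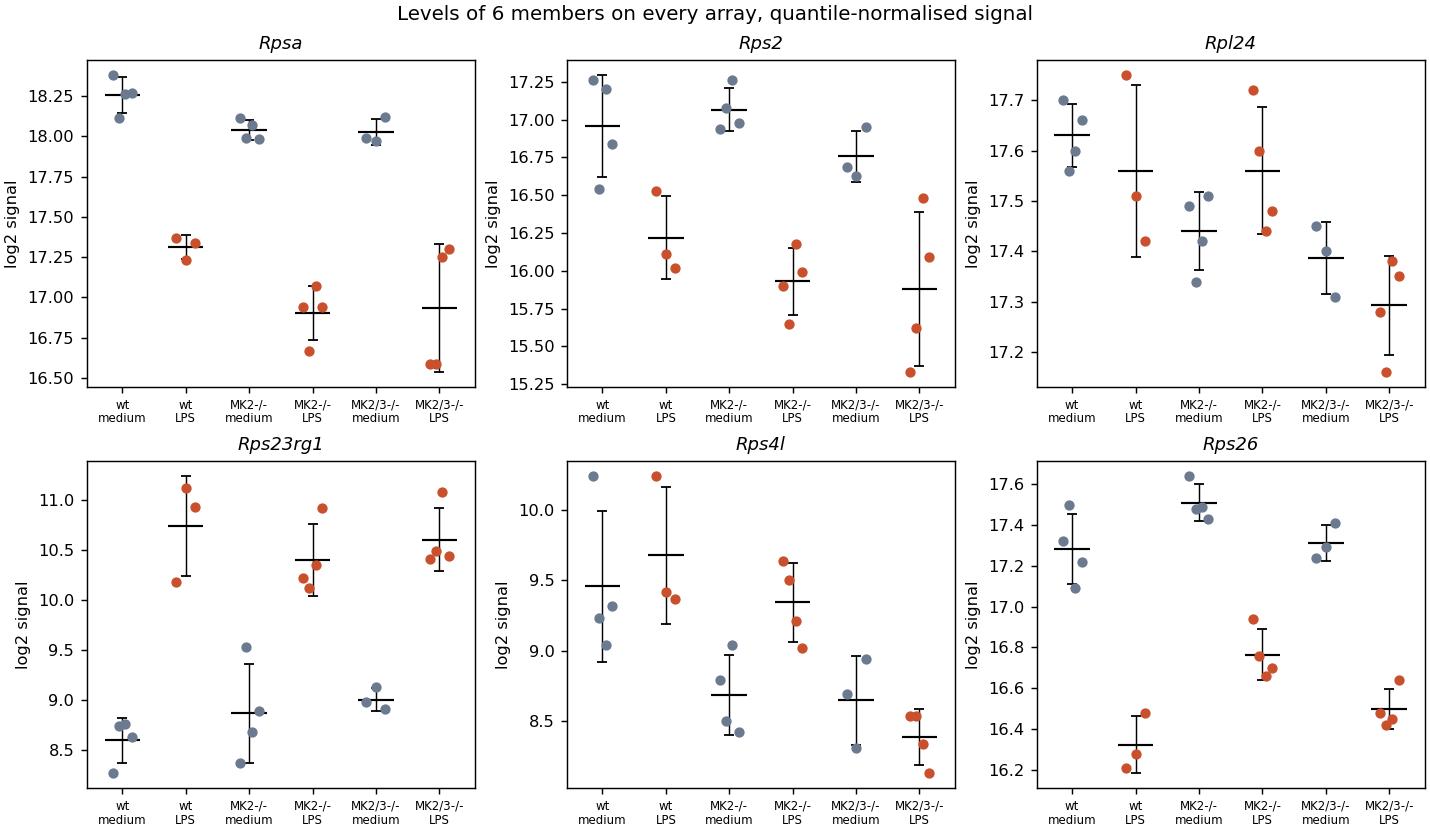
Log2 signal (quantile normalised) of Rpsa, Rps2, Rpl24, Rps23rg1, Rps4l and Rps26 on each array, by genotype and treatment. Rpsa, Rps2 and Rps26 are lower on every LPS array than on the medium arrays of their genotype, Rpl24 overlaps between treatments in each genotype, and Rps23rg1 is higher on every LPS array. After 75th percentile scaling Rpsa, Rps2 and Rps26 were not called.

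Rps18, at the head of the small subunit, had the widest span of LPS differences over the genotypes among the 76 subunit proteins, while 4 dim paralogs (Rps4l, Rpl3l, Rpl39l and Rpl10l) spanned more. Its log2 signals were 15.92, 15.85, 15.85 and 16.31 in wt medium and 15.77, 15.51 and 15.63 in wt LPS, a difference of -0.35 ± 0.19 that was not called (limma adjusted p = 0.148). It fell by 0.96 ± 0.17 in MK2-/- BMDM (adjusted p = 0.000117), from 16.01, 16.65, 16.21 and 16.18 to 15.31, 14.97, 15.49 and 15.42. It fell by 0.83 ± 0.19 in MK2/3-/- BMDM (adjusted p = 0.000965). The difference between the MK2-/- and wt responses was -0.62 ± 0.25, with an unadjusted p of 0.0247 and an adjusted p of 0.622, so it was not called.

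Rps6, the substrate of S6 kinases downstream of mTOR, differed by -0.26 ± 0.2 in wt BMDM (limma adjusted p = 0.323), where its medium arrays ran from 16.36 to 17.43, and fell by 0.52 in MK2-/- and 0.6 in MK2/3-/- BMDM (adjusted p = 0.0266 and 0.017). Further small subunit genes from the list with known roles fell in all 3 genotypes. Rps3, which also acts in DNA repair and as a partner of NF-κB, fell by 0.67, 0.89 and 0.81. Rps19, mutated in Diamond-Blackfan anaemia, fell by 0.65, 0.79 and 0.71, and Rps25, needed by several viral internal ribosome entry sites, by 0.83, 0.51 and 0.64. With the probe of highest wt induction instead, the Rps25 differences were positive in all 3 genotypes. Rps4x and Rps27 fell by 0.5 to 0.72 and by 0.57 to 0.65.

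Large subunit proteins were called lower in 35, 38 and 40 of 42 cases, with medians of -0.57, -0.59 and -0.64 (0.29, 0.15 and 0.30 after 75th percentile scaling). Rpl14 had log2 signals of 18.03, 17.77, 17.94 and 18.11 in wt medium and 16.82, 17.18 and 17.28 in wt LPS. In MK2-/- BMDM they were 17.94, 17.89, 18.1 and 18.2 against 17.09, 17.02, 17.34 and 17.1, and in MK2/3-/- BMDM 18.05, 17.93 and 18.14 against 16.74, 16.83, 17.18 and 17.45. No LPS array reached a medium array of its genotype. Rpl14 fell by 0.87 ± 0.18, 0.9 ± 0.16 and 0.99 ± 0.18 (limma adjusted p = 0.000579, 0.000149 and 0.000113).

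Rpl13a is the large subunit protein that, once phosphorylated and released, joins the GAIT complex and blocks translation of inflammatory mRNAs in monocytes. Its log2 signals were 16.92, 16.75, 16.85 and 16.89 in wt medium and 15.47, 16.12 and 16.23 in wt LPS. They were 16.66, 16.33, 16.62 and 16.54 against 15.96, 15.81, 15.77 and 15.97 in MK2-/- BMDM, and 16.64, 16.63 and 16.64 against 15.76, 15.7, 15.95 and 16.07 in MK2/3-/- BMDM. Its mRNA fell by 0.91, 0.66 and 0.77 (limma adjusted p = 0.000207, 0.00153 and 0.000759), and the groups did not overlap.

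Rpl5 and Rpl11 form with 5S rRNA the particle that binds Mdm2 when ribosome assembly fails. Rpl11 fell by 0.61, 0.72 and 0.62. Rpl5 fell by 0.78 ± 0.2 in wt and by 0.96 ± 0.2 in MK2/3-/- BMDM (limma adjusted p = 0.00397 and 0.000512), and its MK2-/- difference of -0.43 ± 0.18 was not called (adjusted p = 0.0686). The difference between the MK2/3-/- and MK2-/- responses of Rpl5 was -0.53 ± 0.27 and was not called (adjusted p = 0.616). Rpl3, at the peptidyl transferase centre, fell by 0.63, 0.91 and 0.64, and Rpl10, which matures the late large subunit, by 0.54, 0.62 and 0.78. Rpl22 fell by 0.6, 0.61 and 0.84, and Rpl39, at the exit tunnel, by 0.79, 0.55 and 0.46. With the probe of highest wt induction instead, the Rpl39 difference in MK2-/- BMDM was positive. Rpl26 and Rpl38, the latter linked to selective translation of Hox mRNAs, differed by -0.41 and -0.31 in wt BMDM, which was not called (adjusted p = 0.0739 and 0.104), and fell by 0.56 and 0.5 in MK2-/- and by 0.54 and 0.41 in MK2/3-/- BMDM.

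The stalk genes were called lower in 2, 3 and 3 of 3 cases (after 75th percentile scaling in 0, with medians of 0.46, 0.31 and 0.41). Rplp1 fell by 0.6, 0.7 and 0.61 and Rplp2 by 0.42, 0.44 and 0.59. Rplp0 differed by -0.4 ± 0.18 in wt BMDM (limma adjusted p = 0.0896) and fell by 0.42 and 0.54 in MK2-/- and MK2/3-/- BMDM, with adjusted p of 0.0486 and 0.0186, the first of which was lost on leaving out any of 16 of the 22 arrays.

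Rpl24, a protein at the bridge between the subunits, was the single subunit protein called in no genotype, and it is named because of its values. Its log2 signals were 17.7, 17.56, 17.6 and 17.66 in wt medium and 17.75, 17.51 and 17.42 in wt LPS. In MK2-/- BMDM they were 17.49, 17.34, 17.42 and 17.51 against 17.72, 17.6, 17.44 and 17.48, and in MK2/3-/- BMDM 17.45, 17.4 and 17.31 against 17.28, 17.16, 17.38 and 17.35. Its differences were -0.07 ± 0.13, 0.12 ± 0.12 and -0.09 ± 0.13 (limma adjusted p = 0.697, 0.45 and 0.588). After 75th percentile scaling they were 0.79, 0.93 and 0.93, so that Rpl24 stood above the other subunit proteins with both scalings.

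The LPS differences of members with and without the start tract shown above overlapped. The 13 subunit genes with a tract at the annotated start had median LPS differences of -0.52, -0.55 and -0.63, and the 43 with a listed promoter and no such tract had -0.59, -0.62 and -0.66. After 75th percentile scaling the medians were 0.31, 0.21 and 0.32 with the tract and 0.28, 0.13 and 0.30 without it. The wt differences ran from -0.87 to -0.26 with the tract and from -0.96 to -0.07 without it. Rpl14 and Rps6, both with a tract, lay at opposite ends of that range.

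The paralogs and retrocopies did not move together. Of 10, 5, 5 and 4 were called lower in wt, MK2-/- and MK2/3-/- BMDM (0 after 75th percentile scaling). Rps27l, a target of p53, fell by 0.82, 0.68 and 0.7, and Rpl36al by 0.82, 0.59 and 0.98. Rpl32l and Rpl37rt, near copies of Rpl32 and Rpl37, fell by 0.65, 0.47 and 0.69 and by 0.66, 0.65 and 0.76, but their probes may also capture the parent mRNA. Rpl22l1, which competes with Rpl22 for the same place, fell by 0.56 and 0.51 in wt and MK2-/- BMDM, with limma adjusted p of 0.0376 and 0.0404, and differed by -0.3 without MK2 and MK3 (adjusted p = 0.268). Rpl7l1 pointed the other way, with differences of 0.45, 0.43 and 0.19 that were not called (adjusted p = 0.0746, 0.0627 and 0.479). The dim paralogs Rpl10l, Rpl3l and Rpl39l were not called in any genotype, and the SE of Rpl39l was 1.28 in wt and MK2/3-/- BMDM, where its signals ran from 7.12 to 10.83 and from 3.54 to 9.32.

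Rps4l, a retrocopy of Rps4x, rose in MK2-/- BMDM by 0.65 ± 0.26 (limma adjusted p = 0.0468). Its log2 signals were 8.79, 8.5, 9.04 and 8.42 in medium and 9.64, 9.5, 9.21 and 9.02 under LPS, where the lowest LPS value lay below the highest medium value. The differences were 0.22 in wt and -0.26 in MK2/3-/- BMDM (adjusted p = 0.578 and 0.477). The call in MK2-/- BMDM was lost on leaving out any of 13 of the 22 arrays and after 75th percentile scaling (0.62), and the difference was -0.14 after scaling to other bright genes.

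Rps23rg1, a retroposed copy of Rps23 whose product is no ribosomal subunit, rose in all 3 genotypes. Its log2 signals were 8.27, 8.74, 8.76 and 8.63 in wt medium and 10.18, 11.12 and 10.93 in wt LPS. They were 8.37, 9.53, 8.68 and 8.89 against 10.22, 10.12, 10.35 and 10.92 in MK2-/- BMDM, and 8.98, 9.13 and 8.91 against 10.41, 10.49, 11.08 and 10.44 in MK2/3-/- BMDM. Every LPS array was above every medium array of its genotype. Rps23rg1 rose by 2.15 ± 0.28, 1.54 ± 0.26 and 1.6 ± 0.28 (limma adjusted p = 4.67e-06, 5.72e-05 and 8.12e-05), and by 2.4, 1.52 and 1.49 after 75th percentile scaling. Rps19bp1, an activator of the deacetylase SIRT1, differed by -0.08, 0.02 and -0.11 and was not called.

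Most genes had a second probe, which was not used for the counts above. Among 64 further probes of the 76 subunit proteins with a mean log2 signal of at least 14, 52, 59 and 61 were called lower and 0 higher, with medians of -0.55, -0.65 and -0.65 after quantile normalisation. Among 21 dimmer probes 5, 7 and 5 were called lower and 2, 1 and 2 higher, with medians of -0.26, -0.35 and -0.29. The second Rps27a probe, with a mean signal of 5.53, rose by 0.97 in wt and in MK2/3-/- BMDM (limma adjusted p = 0.0227 and 0.019), opposite to the bright probe. A dim Rpl30 probe (10.71) rose by 0.61, 0.43 and 0.59, and a dim Rpl22 probe (11.14) fell by 1.96, fell by 1.87 and fell by 1.98 in the 3 genotypes. Which transcripts the dim probes capture was not tested.

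Leaving out both MK2-/- arrays of low Y-linked signal, 60 members were called lower in MK2-/- BMDM and the median was -0.52 after quantile normalisation. Markers of cell division fell under LPS together with the ribosomal protein mRNAs, while markers of progenitors and of macrophages were mixed. Of 8 proliferation genes 5, 5 and 7 were called lower under LPS in wt, MK2-/- and MK2/3-/- BMDM, with medians of -1.63, -3.17 and -3.09 (-1.57, -2.98 and -2.72 after 75th percentile scaling). The log2 of their summed signal was lower under LPS without overlap in wt (15.1 to 15.78 against 16.08 to 16.54) and in MK2/3-/- BMDM (14.97 to 15.92 against 16.05 to 16.42). In MK2-/- BMDM the groups overlapped (14.86 to 15.81 against 15.59 to 16.56). The log2 of the summed signal of 5 erythroid and progenitor markers was lower under LPS without overlap in each genotype, at 11.05 to 11.89 against 12.64 to 14.3 in wt, 9.94 to 11.93 against 12.97 to 15.2 in MK2-/- and 9.42 to 12.55 against 13.64 to 14.7 in MK2/3-/- BMDM. That sum followed the brightest of the 5, the progenitor marker Cd34, which fell by 2.15, fell by 2.97 and fell by 2.86 (limma adjusted p = 0.0274, 0.0016 and 0.00381), whereas Kit rose by 1.48, 2.32 and 1.94, and the median of the 5 was 0.53, 0.17 and 0.46. After 75th percentile scaling 0, 1 and 1 of the 5 were called lower. The sum of the 9 macrophage markers was 18.91 to 19.08 against 19.26 to 19.68 in wt and 18.92 to 19.23 against 19.34 to 19.58 in MK2/3-/- BMDM, without overlap, and 19.15 to 19.35 against 19.31 to 19.53 in MK2-/- BMDM, where the groups overlapped. Their medians were -0.68, -0.78 and -0.39 (-0.08, -0.06 and -0.08 after 75th percentile scaling), with 3, 4 and 3 called lower (2, 2 and 0 after that scaling) and 2 each higher. The part of these markers in the result was not tested.

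The second question was whether MK2 or MK2 and MK3 changed the levels of these mRNAs. The medians of the members differed little between genotypes, under LPS by -0.03 for MK2-/- against wt, by -0.09 for MK2/3-/- against wt and by -0.07 for MK2/3-/- against MK2-/- BMDM. In medium the same medians were 0, -0.01 and -0.03. After 75th percentile scaling the difference between MK2/3-/- and wt was -0.24 under LPS and in medium.

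Few single members were called between genotypes. Comparing MK2-/- with wt BMDM under LPS, 1 member was called higher and 1 lower, against 4.52% and 7.06% of all genes (11.6% in either direction), and 9 had an unadjusted p below 0.05. Rps26 was higher in MK2-/- BMDM by 0.44 ± 0.14 (limma adjusted p = 0.0424), with LPS signals of 16.94, 16.76, 16.66 and 16.7 against 16.21, 16.28 and 16.48 in wt. The Rps26 groups did not overlap. Both calls were lost without the MK2-/- arrays of low Y-linked signal, which left 0 members called. On leaving out single arrays the Rps26 call was lost for 12 of 22, with values of 0.39 to 0.52.

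In LPS-treated MK2/3-/- against wt BMDM 3 members were lower, against 14% of all genes, and 0 were higher (23.6% of all genes called in either direction). Rps4l was lower by 1.29 ± 0.28 (limma adjusted p = 0.00318), with LPS signals of 8.54, 8.54, 8.34 and 8.13 against 10.24, 9.42 and 9.37 in wt BMDM, and it kept a value of -1.24 after 75th percentile scaling. Its medium signals were 8.69, 8.31 and 8.94 in MK2/3-/- and 10.24, 9.23, 9.04 and 9.32 in wt BMDM, a difference of -0.81 ± 0.28 that was not called (adjusted p = 0.138). Rpl7l1, a paralog of Rpl7, was lower by 0.57 ± 0.2 (adjusted p = 0.0441). The LPS signals of Rpl7l1 were 9.29, 9.85, 9.6 and 9.77 in MK2/3-/- and 10.39, 10.2 and 9.99 in wt BMDM. Leaving out single arrays ended the Rpl7l1 call for 12 of 22 and the Rps4l call for none. Between MK2/3-/- and MK2-/- BMDM under LPS Rps4l alone was called, lower by 0.95 ± 0.26 (adjusted p = 0.02, with 5.8% of all genes called lower and 13.5% in either direction).

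Among medium arrays of MK2-/- against wt BMDM 1 member was called, higher in MK2-/- BMDM (5.7% of all genes higher and 8.82% in either direction), and 15 members had an unadjusted p below 0.05. Rps3a1, a small subunit protein, was higher by 0.44 ± 0.12 (limma adjusted p = 0.0345), with 16.17, 16.4, 16.11 and 16.13 against 15.77, 15.89, 15.8 and 15.57. With limma 0 members were called in medium between MK2/3-/- and wt BMDM (2.02% of all genes) and between MK2/3-/- and MK2-/- BMDM (2.82%), where 4 members each had an unadjusted p below 0.05. All of these genotype differences are also differences between slides.

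Tested as differences between LPS responses, 0 members were called by limma for MK2-/- against wt, MK2/3-/- against wt or MK2/3-/- against MK2-/- BMDM, where 0%, 0.679% and 0.067% of all genes were called. An unadjusted p below 0.05 was found for 2, 0 and 2 members. Rps18 and Rpl18 were below it for MK2-/- against wt, at -0.62 ± 0.25 and -0.48 ± 0.22, and Rps4l and Rpl3l for MK2/3-/- against MK2-/-, at -0.92 ± 0.38 and 0.86 ± 0.41. For Rpsa the difference of responses was -0.19 ± 0.24 for MK2-/- and -0.15 ± 0.25 for MK2/3-/- against wt, so differences of the size of these SEs could not be seen. The medians over the members were -0.02, -0.10 and -0.07.

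Other genes of the translation machinery were set beside the ribosomal proteins from lists chosen by function, for which the shares of all genes called lower under LPS (23.5%, 27.1% and 27.9%) and higher (18.6%, 17.5% and 20.2%) are the background. Fau, which encodes a ubiquitin-like fusion with a small subunit protein, fell by 0.47, 0.45 and 0.6 (limma adjusted p = 0.0154, 0.012 and 0.00257). Rack1, a scaffold on the small subunit, differed by -0.34 in wt BMDM (adjusted p = 0.0735) and fell by 0.46 and 0.63 in MK2-/- and MK2/3-/- BMDM (adjusted p = 0.0102 and 0.00177). Of 13 elongation factors and other TOP mRNAs 9, 9 and 10 were called lower and 0 higher, with medians of -0.63, -0.73 and -0.71 (0.24, 0.02 and 0.19 after 75th percentile scaling). Eef1a1, which brings aminoacyl-tRNA to the ribosome, fell by 0.63, 0.37 and 0.7, and the translocase Eef2 by 0.85, 0.89 and 1.09. Npm1, a nucleolar chaperone, fell by 0.94, 1 and 1.47, whereas the poly(A)-binding protein gene Pabpc1 differed by -0.26, -0.09 and -0.14 and was not called.

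Initiation factors were mixed. Of 34, 12, 14 and 15 were called lower and 4, 8 and 4 higher, with medians of -0.27, -0.38 and -0.43 (0.23, 0.17 and 0.06 after 75th percentile scaling). Eif4g2 rose by 1.57, 1.75 and 1.3, Eif6, which keeps the subunits apart, by 1.31, 1.15 and 1.19, and Eif1 by 0.98, 0.72 and 0.7, while Eif3l fell by 0.87, 1.31 and 1.6.

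Mitochondrial ribosomal protein genes, whose products serve the separate ribosome of the mitochondrion, were called lower in 34, 47 and 47 of 77 cases and higher in 3, 2 and 2. Their medians of -0.44, -0.63 and -0.82 were negative after 75th percentile scaling as well (-0.13, -0.41 and -0.51, with 20, 35 and 37 called lower and 9 each called higher), unlike those of the cytosolic ribosomal proteins. Under LPS 29 of the 77 were lower in MK2/3-/- than in wt BMDM and 0 higher, or 37.7% against 14% of all genes, and against 3 and 0 of the 88 cytosolic members. Mrps2, a protein of the small mitochondrial subunit, had a lower LPS response in MK2/3-/- than in wt BMDM by 1.36 ± 0.24 (limma adjusted p = 0.0229).

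Of 63 ribosome assembly factors 9, 17 and 34 were called lower and 9, 12 and 8 higher, with medians of -0.21, -0.15 and -0.61 (0.08, 0.02 and -0.46 after 75th percentile scaling). The lower calls made up 14.3%, 27% and 54% of the list, below the share over all genes in wt BMDM, close to it in MK2-/- BMDM and above it in MK2/3-/- BMDM. The rRNA acetyltransferase Nat10 and the processome protein Utp14a had lower LPS responses in MK2/3-/- than in wt BMDM, with differences of -1.91 ± 0.43 and -1.78 ± 0.36 (limma adjusted p = 0.0432 and 0.0343). Of 14 genes of RNA polymerase I and its factors, which transcribe rRNA, 3, 5 and 9 were called lower and 2, 1 and 1 higher, with medians of -0.30, -0.40 and -0.64 (-0.12, -0.16 and -0.54 after 75th percentile scaling). Polr1a, its largest subunit, fell by 0.62, 1.07 and 1.38, and the rDNA factor Ubtf rose by 1.2, 1.78 and 1.1.

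Of 24 regulators of ribosomal protein mRNA 9, 9 and 12 were called lower and 6, 9 and 6 higher, with medians of -0.10, 0.24 and -0.58 (0.04, 0.20 and -0.29 after 75th percentile scaling). Larp1, the TOP-binding protein, rose by 1.86 ± 0.2, 2.06 ± 0.19 and 1.88 ± 0.2, and the mRNA of the cap-complex inhibitor Eif4ebp2 fell by 2.51, fell by 2.8 and fell by 3.12. Among the Myc network, Mxd1 rose by 3.66, 3.97 and 4.08 and Mnt fell by 2.32, 1.99 and 2.4. Myc itself differed by 1.12 in wt, rose by 1.11 in MK2-/- and differed by 0.42 in MK2/3-/- BMDM (limma adjusted p = 0.0676, 0.0473 and 0.504).

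**Figure D5:**
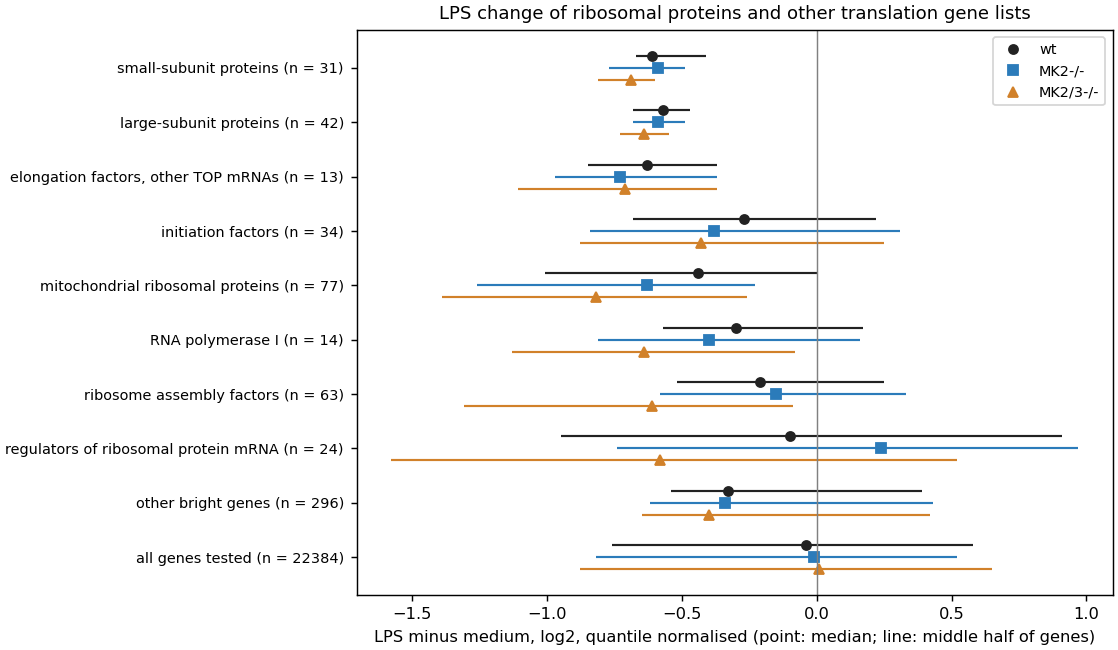
Median log2 difference, LPS minus medium (quantile normalised), of the ribosomal protein groups and of other translation gene lists in wt, MK2-/- and MK2/3-/- BMDM, with lines from the lower to the upper quartile of the genes. Small and large subunit proteins lie between -0.69 and -0.57 in all 3 genotypes, whereas the mitochondrial ribosomal proteins run from -0.44 to -0.82 and the assembly factors from -0.15 to -0.61. After 75th percentile scaling the subunit protein medians were positive (0.15 to 0.30) and the mitochondrial ones negative (-0.51 to -0.13).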

How the data were processed

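Total RNA of 22 BMDM samples was hybridised to one-colour Agilent arrays. The authors extracted the scanner values with Feature Extraction (version 11.0.1.1 per the file headers), and the deposited files hold background-corrected processed intensity per spot and a table of log2 values that the authors had quantile normalised and centred per probe on the median of all samples. Its column medians ran from -0.07 to 0.08 and it followed the centred quantile values of the scanner files with r from 0.993 to 0.999, which gives its scale and direction.

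From the intensities, control spots and outlier flags were left out, spots of a probe were averaged, and log2 values were quantile normalised over the 22 arrays. A probe was kept if at least 3 arrays had it well above background and 18 had a value, and the probe of highest mean stood for its gene. Of 29150 probes with a RefSeq accession, 27509 were named through the RefSeq gene table, and 3735 had a GenBank accession. limma 3.58.1 in R 4.3.3 (lmFit and eBayes) fitted 6 group means over 22384 genes without a block, two-sided, and was tested on simulated data. Ranks within arrays, promoter matches and medians are descriptions. The normexp alternative, offset 50, used median spot signals.

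Members, lists and tests were chosen with earlier results of these data known. Named members are the 4 highest rises and the 4 largest falls among those called in each LPS comparison, the 3 largest in each direction in each genotype comparison, those called in a comparison of responses, the paralogs and a list with known roles. Rpl24, Rpl30, Rpl18, Rpl32l and Rpl37rt were named after their values were seen. Alternatives were another scaling or background correction, the authors' table, probe choice, filters, array weights, replicate blocks, the methods' t-test and leaving out arrays. The number of arrays limits the precision. Some items, also among members called between genotypes, are not reported here.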

Additional observations from a re-analysis of the deposited data

Results flagged for a closer look

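Within groups of 4 arrays, 160 sets of values, those of 38 named members and the median signal and median rank of the 76 subunit proteins in each of 4 groups, were examined with Dixon's ratio, the gap of the farthest array to its nearest neighbour divided by the range. Chance flags about 1 in 20 such sets, and 6 were flagged. Rpl10l in wt medium had a ratio of 0.953, with 3.86 on replicate 3 against 5.49 to 5.57 on the others. Rps25 in MK2-/- medium had 0.955, with 16.74 on replicate 2 against 17.16 to 17.18. Rpl26 in MK2-/- LPS had 0.913, with 16.35 on replicate 3, the array with most spots left out, against 16.56 to 16.58. Rps23rg1 in MK2/3-/- LPS had 0.881, with 11.08 on replicate 3 against 10.41 to 10.49. Rpl7l1 in MK2-/- LPS had 0.875, with 9.39 on replicate 4 against 10.02 to 10.11. Rps18 in wt medium had 0.848, with 16.31 on replicate 4 against 15.85 to 15.92.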

How the results depend on the processing

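The negative sign of the members' LPS medians held under every alternative tried except 75th percentile scaling, while calls of single members between genotypes depended on most of them. Most of these alternatives kept quantile normalisation, so they do not check whether the sign rests on that step. The cause of a change was not tested. Slides that hold 1 genotype each and groups of 3 or 4 arrays limit the genotype comparisons, and signal relative to background limits Rpl10l, Rpl39l and Rpl3l, which were well above it on 21, 20 and 18 of 22 arrays. In all, 38 settings were compared, 36 of them planned, with moves judged against a pooled SD of array medians of 0.08. Named differences lost their call 210 times under planned settings and 16 times under added ones, and gained one 32 and 3 times.

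With 75th percentile scaling the LPS medians were 0.28 in wt, 0.19 in MK2-/- and 0.3 in MK2/3-/- BMDM, with 14, 4 and 13 members called. The medians between genotypes were then -0.19 (MK2-/- against wt, LPS), -0.24 (MK2/3-/- against wt, LPS and medium) and -0.21 (MK2/3-/- against MK2-/-, medium), and those of the responses -0.11, -0.01 and 0.14, with 3 (MK2-/- against wt) and 5 (MK2/3-/- against wt) members called in medium and 1, 9 and 0 under LPS. Single differences turned sign there. In wt: Rpl10 0.31, Rpl11 0.29, Rpl14 0.05, Rpl22 0.2, Rpl22l1 0.25, Rpl24 0.79, Rpl3 0.19, Rpl36al 0, Rpl38 0.54, Rpl39 0.03, Rpl5 0.07, Rplp1 0.29, Rplp2 0.47, Rps15 0.19, Rps19 0.17, Rps2 0.09, Rps25 0.01, Rps27 0.29, Rps27l 0.04, Rps3 0.15, Rps4x 0.3, Rps6 0.57. In MK2-/-: Rpl10 0.09, Rpl11 0.03, Rpl13a 0.06, Rpl22 0.11, Rpl22l1 0.34, Rpl26 0.17, Rpl36al 0.26, Rpl38 0.27, Rpl39 0.15, Rplp0 0.31, Rplp1 0.06, Rplp2 0.32, Rps25 0.23, Rps26 0, Rps27 0.19, Rps27l 0.14, Rps4x 0.03, Rps6 0.21. In MK2/3-/-: Rpl10 0.18, Rpl11 0.35, Rpl13a 0.11, Rpl22 0.05, Rpl24 0.93, Rpl26 0.38, Rpl3 0.24, Rpl38 0.56, Rpl39 0.4, Rplp0 0.42, Rplp1 0.35, Rplp2 0.41, Rps15 0.05, Rps18 0.1, Rps19 0.18, Rps2 0.04, Rps25 0.29, Rps26 0.14, Rps27 0.32, Rps27a 0.03, Rps27l 0.24, Rps3 0.12, Rps4x 0.32, Rps6 0.32.

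The authors' table gave LPS medians of -0.44, -0.42 and -0.5, and 1 call between MK2-/- and wt under LPS. With the probe of highest wt induction the wt median was -0.45 and the MK2-/- response -0.11, with 4 and 1 members called against wt in medium and 5 and 2 under LPS for MK2/3-/- against wt and MK2-/-. Rps25 was then 0.21, 0.18 and 0.16, Rps27a 0.97 in wt and MK2/3-/- and Rpl39 0.29 in MK2-/- BMDM. Array weights gave -0.18 for MK2/3-/- against wt under LPS and for its response, -0.16 against MK2-/-, and 7, 13 and 3 calls under LPS and 5, 2 and 1 in medium. Scaling to other bright genes gave 0.08 between MK2-/- and wt in medium, 5 and 2 calls against wt in medium, under LPS 1 call for MK2-/- against wt and 0 for MK2/3-/- against MK2-/-, Rpl7l1 at -0.77 in MK2/3-/- and Rps19bp1 at -0.56 and Rps4l at -0.14 in MK2-/- BMDM. With all probes averaged 0 members were called between MK2-/- and wt in medium. At 1.5-fold or more 43 and 42 members were called under LPS in wt and MK2-/- BMDM, and 0 and 1 members for MK2-/- and MK2/3-/- against wt under LPS, with 0 for the former in medium. Normexp gave 5 calls between MK2-/- and wt in medium, 4 under LPS and 8 between MK2/3-/- and wt. Fits of only the groups compared gave 0, 0 and 1 for the same, and probes well above background on all 22 arrays gave 6 for the last. The methods' t-test gave, for MK2-/- against wt, MK2/3-/- against wt and MK2/3-/- against MK2-/-, 18, 9 and 7 members under LPS and 18, 14 and 16 in medium at their unadjusted threshold. After Benjamini-Hochberg adjustment it gave 1, 0 and 2 under LPS and 2 (MK2-/- against wt) and 1 (MK2/3-/- against MK2-/-) in medium. It was not run for medians and differences of responses. Without both MK2-/- arrays of low Y-linked signal 0 members were called between MK2-/- and wt.

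Leaving out 1 array at a time gave LPS medians of -0.59 to -0.52 in wt, -0.62 to -0.54 in MK2-/- and -0.69 to -0.6 in MK2/3-/- BMDM, with 55 to 71, 70 to 80 and 68 to 79 members called. Between genotypes the medians were -0.05 to 0, -0.14 to -0.03 and -0.13 to -0.02 under LPS, with 0 to 2, 1 to 9 and 0 to 1 members called, and -0.04 to 0.04, -0.03 to 0.02 and -0.06 to -0.01 in medium, with 0 to 2, 0 and 0 called. The responses were -0.08 to 0.01, -0.14 to -0.04 and -0.11 to 0, with 0 called. Of the named calls, the following were lost without 1 array of their own comparison: Rps6 in MK2/3-/- without medium replicate 1 (-0.55), Rps27a there without LPS replicate 1 or medium replicate 1 or 3 (-0.97 to -0.68), Rplp0 there without LPS replicate 1 or 2 or medium replicate 3 (-0.48 to -0.44), Rpl26 there without medium replicate 1 or 2 (-0.52 to -0.5), Rpl38 there without any of 5 arrays, Rps4x in wt without LPS replicate 1 or 2 (-0.47 to -0.41), Rpl22 in wt without LPS or medium replicate 3 (-0.49 to -0.45), Rplp2 in wt without any of 4 arrays, Rpl22l1 in wt and MK2-/- without any of 5 and 6, Rps6 in MK2-/- without any of 4, Rps3a1 between MK2-/- and wt without any of 5 and Rps4l against MK2-/- under LPS without any of 3.

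Arrays of the same number or letter did not correlate in every pair. Correlations of deviations were above 0.1 in 7 of 10 pairs for either, from -0.0859 to 0.419 by letter and to 0.362 by number, and in 5 of 30 pairs of other letters, from -0.328 to 0.264. The labelled age was shared by 10 of 10 pairs of the same letter and 5 of 30 of other letters. With the letter as a replicate block (consensus correlation 0.144) 71, 79 and 79 members were called under LPS, and with the number (0.117) 71, 78 and 79.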

Other observations

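The paralog Rpl39l varied more between arrays than it differed between LPS and medium. Its log2 signals in medium ran from 3.54 to 10.83. Across the 10 pairs of an LPS and a medium array whose names carried the same letter, the pooled Pearson r was 0.917 and the Spearman rho 0.942, but the pairs also share genotype and slide. With signals centred on each genotype, r was 0.899 (exact two-sided permutation within genotypes over 864 exchanges, p = 0.00231, adjusted over 87 members with a value on each of these arrays 0.201). On ranks within each genotype r was 1 (exact permutation p = 0.00231, adjusted 0.201). The relation did not pass the correction, but a single member could not have passed it. The smallest p that this permutation over 864 exchanges allows is 0.00116, too large for an adjustment over 87 members. Without the 2 pairs farthest from the median in medium the centred r was 0.853. Of the 87 members 0 had an adjusted and 5 an unadjusted p below 0.05. Whether the letters mark shared animals or cultures is not given in the sources used here.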
